A study of Homo sapiens with 30 samples.

Results

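Human mitochondrial DNA carries its own small set of genes, and their RNAs were followed here in 2 colorectal cancer cell lines depleted of either of 2 subunits of a chromatin complex. The genes were taken by name, as every gene whose symbol begins with MT-, which gave 37 of the 60617 genes in the files: 13 mRNAs, 2 rRNAs and 22 tRNAs. HCT116 and SW480 cells were transfected with 10 nM siRNA and harvested after 48 h. In each line 5 groups of 3 libraries received a control siRNA, siBRD8-6 or siBRD8-36 against BRD8, or siTIP60-2 or siTIP60-11 against TIP60, the acetyltransferase encoded by KAT5. BRD8 is a bromodomain subunit of the TIP60 complex. All 30 libraries came from lipid-transfected cells, HCT116 in McCoy's 5A and SW480 in Leibovitz's L-15 medium, so line and medium cannot be told apart. Nothing in the labels tells if the 3 libraries of a group came from different cultures, so p-values measure only the spread between these libraries, which may be technical.

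Mitochondrial DNA is copied and transcribed inside the organelle. A dedicated RNA polymerase, POLRMT, with its factors TFAM and TFB2M, makes long transcripts from each strand. RNase P and ELAC2 cut the tRNAs out of these transcripts, which frees the mRNAs and rRNAs between them, and the LRPPRC and SLIRP complex stabilises most of the mRNAs. The mRNAs encode subunits of the respiratory chain: MT-ND1 to MT-ND6 and MT-ND4L belong to complex I, MT-CYB to complex III, MT-CO1 to MT-CO3 to complex IV, and MT-ATP6 and MT-ATP8 to the ATP synthase. MT-RNR1 and MT-RNR2 are the RNAs of the small and large subunits of the mitochondrial ribosome. All other proteins of these machines are encoded in the nucleus.

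Assigned counts per library ran from 13.4 to 18.6 M in HCT116 and from 7.07 to 11.7 M in SW480. The targeted gene was lower in each siRNA group: BRD8 differed from control by −2.27 and −2.82 on the log2 scale in HCT116 and by −2.02 and −2.24 in SW480, and KAT5 by −3.76 and −3.33 in HCT116 and by −3.64 and −2.87 in SW480. The siBRD8-36 libraries also held less KAT5, at −0.31 ± 0.0558 (SE, adjusted p = 8.01e-05) in HCT116 and −0.41 ± 0.0872 (SE, adjusted p = 0.000206) in SW480 by edgeR. Of 10 colon epithelium markers 7 averaged at least 1 CPM (counts divided by the library's total in M) in each line, led by KRT8. Fibroblast, leukocyte and endothelial markers each summed to at most 70.7 CPM, and COL1A1 and LYZ led the first 2 of these lists. In SW480, 5 of 8 fibroblast, 2 of 9 leukocyte and 2 of 4 endothelial markers were at 0 in all libraries, and in HCT116 0, 1 and 1 were. Some libraries stood apart. Those numbered 2 of both BRD8 siRNAs in HCT116 held less mitochondrial mRNA than the others of their groups, and in SW480 library 3 of siBRD8-6 and library 1 of siBRD8-36 held the least of a set of small structured RNAs. Some counts of called mRNAs and some calls of single genes are also given without them. Shares and ratios over both siRNAs of a target are given with all libraries and with 1 library left out at a time. In bulk RNA a gene's higher share can reflect more of its RNA per cell or less of other RNA, and fewer cells of a type and less RNA per cell cannot be told apart.

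The tRNAs were almost invisible in these data. All 22 together held 7 to 28 counts per library, 415 counts over the 30 libraries, and no tRNA reached a mean of 10 counts per library in either line. MT-TL1, the leucine tRNA that follows directly on MT-RNR2, held 197 of these counts and was found in 30 of 30 libraries, while MT-TI, the isoleucine tRNA, held 48 and MT-TD, MT-TW, MT-TL2 and MT-TP held none. These tRNAs are named after their counts were seen. As a share of all mitochondrial counts, the tRNAs made up 0.00372% of the HCT116 control counts (95% exact binomial interval 0.00247 to 0.00538%) and 0.00752% of the SW480 control counts (0.00551 to 0.0100%), intervals that cover counting error only. The reads were 60 bases long, so a tRNA of this size offers few places for a read to lie wholly inside it. The sequences of 3 tRNAs, from GENCODE 29 on GRCh38, are given to show their length, with capitals at the bases where such a read could begin.
MT-TL1 (chrM:3230-3304, plus strand): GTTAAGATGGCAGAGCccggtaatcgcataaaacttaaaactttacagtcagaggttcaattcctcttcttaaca
MT-TI (chrM:4263-4331, plus strand): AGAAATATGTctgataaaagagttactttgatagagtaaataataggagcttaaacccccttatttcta
MT-TS2 (chrM:12207-12265, plus strand): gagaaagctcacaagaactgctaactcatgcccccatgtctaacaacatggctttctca
MT-TL1 has 16 such positions, MT-TI has 10 and MT-TS2, the serine tRNA with the fewest bases of the 3, has 0, against 895 in MT-RNR1. MT-TS2 held 1 count in all. MT-RNR1 held 307100 counts over the 30 libraries, and MT-TL2, with 12 such positions, held 0. The part of read length in the low tRNA counts was not tested. No tRNA passed the filter on low counts within a line. In the fit of both lines MT-TL1 alone passed it, at 1.95 ± 0.572 (SE, adjusted p = 0.00253) between the control groups on the log2 scale by edgeR. That value rests on 10 counts in the 3 HCT116 control libraries and 19 in the 3 of SW480.

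Per length, the control cells of both lines held complex IV mRNAs and MT-ATP6 at the highest mRNA levels and MT-ND6 at the lowest. In HCT116 control libraries MT-ATP6, a proton channel subunit, averaged 4148 ± 668 TPM (SD, n = 3), MT-CO3 3899 ± 274, MT-CO2 3523 ± 85.3 and MT-CO1 3217 ± 315. Neighbours among these first genes overlapped in their libraries, as did MT-CO1 with MT-ATP8 at 2731 ± 302 and MT-ATP8 with MT-ND4 at 2456 ± 255 TPM. A gap without overlap then separated MT-ND4 from MT-RNR2 at 1563 ± 42 TPM, and a second gap separated MT-RNR2 from MT-ND4L, MT-ND3, MT-CYB and MT-ND2, which ran from 1127 ± 202 down to 914 ± 90.5 TPM and overlapped in turn. MT-ND1 at 691 ± 57.6, MT-ND5 at 639.7 ± 106 and MT-RNR1 at 478 ± 44.4 TPM followed, and MT-ND6 came last at 36.3 ± 6.34 TPM.

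MT-ND6 is the only mRNA of the set on the minus strand (chrM:14149-14673, ENSG00000198695), where 8 of the 22 tRNAs also lie, while 28 of the 37 genes lie on the plus strand. Its level in SW480 control libraries, 25.1, 30.6 and 24.8 TPM, was also the lowest there. The kit keeps strand, but whether counting used it is not given in the sources used here, so reads from the opposite strand and from MT-ND6 itself cannot be told apart. The SW480 order was otherwise sharper: MT-CO1, the catalytic core of complex IV, led with 4456 ± 49.7 TPM (SD, n = 3), then MT-ATP6 with 4023 ± 45.8 and MT-RNR2 with 3870.0 ± 26.2. Of all neighbours in that order, MT-ATP8 at 2384 ± 281 and MT-RNR1 at 2133 ± 73.1 TPM were the only pair whose libraries overlapped.

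**Figure D1:**
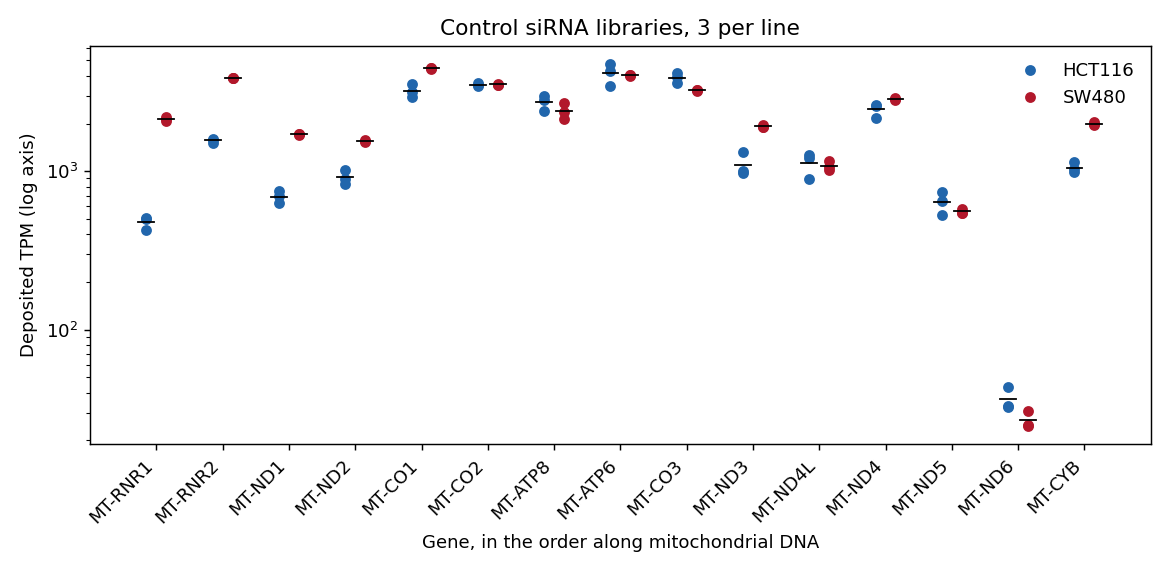
Deposited TPM on a log axis of the 2 rRNAs and 13 mRNAs, in the order in which they lie along mitochondrial DNA, in the 3 control siRNA libraries of HCT116 (blue) and SW480 (red), where points are libraries and bars are means. MT-ND6 lies lowest in both lines, and MT-RNR1, MT-RNR2, MT-ND1, MT-ND2, MT-CO1, MT-ND3, MT-ND4 and MT-CYB lie higher in SW480 than in HCT116.

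The mitochondrial genes are packed without introns, and 3 pairs of mRNAs share bases, which limits how well their counts can be separated. MT-ATP8 (chrM:8366-8572) and MT-ATP6 (chrM:8527-9207) share 46 bases, MT-ND4L (chrM:10470-10766) and MT-ND4 (chrM:10760-12137) share 7, and MT-ATP6 and MT-CO3 (chrM:9207-9990) share 1. The first 2 junctions are given with 30 bases on either side and the shared bases in capitals, because both members of each pair enter the results as separate genes although in cells they are read from one transcript.
MT-ATP8 and MT-ATP6 (GRCh38 chrM:8497-8602, plus strand): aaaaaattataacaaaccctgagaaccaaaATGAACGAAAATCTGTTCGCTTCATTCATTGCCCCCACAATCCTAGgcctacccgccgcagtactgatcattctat
MT-ND4L and MT-ND4 (GRCh38 chrM:10730-10796, plus strand): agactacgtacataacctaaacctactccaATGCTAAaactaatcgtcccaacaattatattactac
Each shared stretch starts with the first codon of the second gene. A read that spans a junction can be divided between 2 genes by the estimation of expected counts, so MT-ATP8 against MT-ATP6 and MT-ND4L against MT-ND4 are uncertain.

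Copies of mitochondrial DNA in the nuclear genome also held counts. The files list 407 such annotated copies, of which 79 held counts, 189363 over all libraries, and MTATP6P1 held 83.6% of these. MTATP6P1 (chr1:633696-634376, plus strand) has 671 of 681 bases in common with MT-ATP6, and 39.4% of the 60-base windows of MT-ATP6 occur in it unchanged. It held 11.7 to 19.7% of the counts of the pair in HCT116 and 11.8 to 14.1% in SW480. A stretch of 90 bases is printed from both genes (GENCODE 29, GRCh38), with the 4 bases that differ in capitals. The 2 genes differ at 10 bases in all, so this stretch is richer in differences than the rest of the gene.
MT-ATP6 (chrM:8629-8718): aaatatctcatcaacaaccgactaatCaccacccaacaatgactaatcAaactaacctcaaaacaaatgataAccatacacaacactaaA
MTATP6P1 (chr1:633798-633887): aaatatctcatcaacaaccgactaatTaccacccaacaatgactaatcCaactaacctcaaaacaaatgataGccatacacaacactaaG
MTND2P28, a copy of MT-ND2, held 13% of the copies' counts and 2.46 to 5.86% of its pair. MTCO1P12 held 1.53% of the copies' counts, and MTRNR2L1, MTND1P23 and MTRNR2L12 held 0.638, 0.595 and 0.240%. Adding the copies' counts to their mitochondrial genes moved no count of called mRNAs by more than 1.5 times.

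The lines differed before any depletion. Control SW480 libraries held 2.69, 2.80 and 2.72% of their counts in mitochondrial genes and control HCT116 libraries 1.58, 1.66 and 1.57%. In the fit of all 30 libraries 8 of 13 mRNAs and both rRNAs were higher in SW480, where 37% of all 17411 genes tested were (edgeR, adjusted p under 0.05). MT-ND1, a membrane subunit of complex I, differed most among the mRNAs, with 1330.3, 1425 and 1351 normalised CPM (CPM with TMM-scaled totals) in SW480 against 408, 428 and 435 in HCT116, scaled within each line. Its difference in the joint fit was 1.59 ± 0.129 (SE, adjusted p = 1.22e-10) on the log2 scale. MT-CYB at 1.21, MT-ND3 at 1.07, MT-ND2 at 1.05, MT-CO1 at 0.74, MT-ND4 at 0.50, MT-CO2 at 0.28 and MT-ND4L at 0.23 were the others. MT-CO3 stood at 0.014 ± 0.115 (SE, adjusted p = 0.917). MT-CO2 and MT-ND4L passed narrowly, with adjusted p of 0.0489 and 0.042, and 6 mRNAs were called by limma on log2(TPM + 1), where the median over all genes was −0.25. The rRNAs were higher in SW480 too, MT-RNR2 by 1.59 and MT-RNR1 by 2.44, so that the rRNA counts per mRNA count were 0.309, 0.317 and 0.307 in SW480 and 0.134, 0.14 and 0.134 in HCT116. In the same control libraries small structured RNAs of the nucleus and cytoplasm (RN7SL1, RN7SL2, RN7SK, RMRP and RPPH1) summed to 3019.5, 3527 and 3156 CPM in SW480 and 214, 188 and 128 in HCT116. Their part in the rRNA difference was not tested.

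The share of each library taken by mitochondrial mRNAs was greatest with siTIP60-11 in both lines. In HCT116 it was 1.39, 1.46 and 1.39% in the control libraries 1, 2 and 3 and 2.34, 2.58 and 2.65% with siTIP60-11, and in SW480 2.06, 2.13 and 2.08% and 3.22, 3.44 and 3.21%. Both siTIP60-11 groups lay wholly above their controls, with 1.79 and 1.58 times the control mean. With siTIP60-2 the values were 2.3, 1.94 and 2.16% in HCT116, 1.51 times control, and 2.27, 2.29 and 2.27% in SW480, 1.09 times control and also without overlap. With siBRD8-6 they were 1.97, 1.41 and 1.92% in HCT116 and 2.16, 2.37 and 1.97% in SW480. With siBRD8-36 they were 2.0, 1.43 and 2.06% in HCT116 and 2.05, 1.94 and 1.88% in SW480. In HCT116 library 2 of each BRD8 siRNA lay at the control level while libraries 1 and 3 lay above it, and in SW480 the siBRD8-36 libraries all lay below the control.

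**Figure D2:**
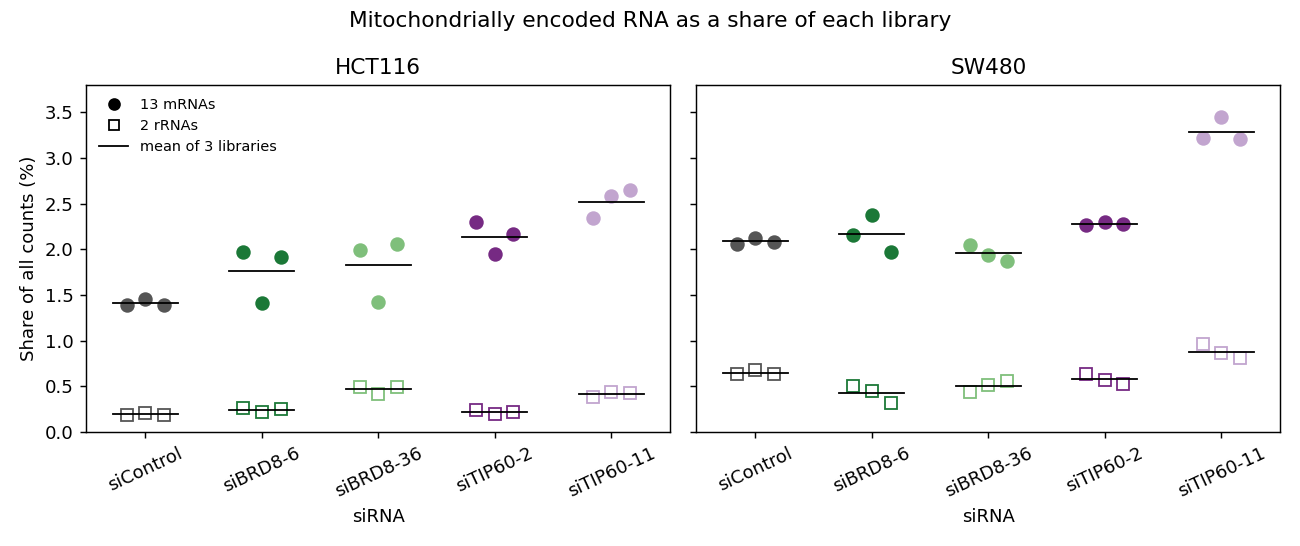
Share of all counts (percent) held by the 13 mitochondrial mRNAs (filled circles) and the 2 rRNAs (open squares) in each library of HCT116 and SW480, by siRNA, with bars at the mean of 3 libraries and replicates 1 to 3 from left to right. The siTIP60-11 libraries hold the most mRNA in both lines, at 2.34 to 2.65% and 3.21 to 3.44%, and in HCT116 the rRNA share is highest with siBRD8-36 and siTIP60-11.

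Over both siRNAs of a target, 6 libraries were compared with 3 controls by two-sided exact permutation tests of log2 values, 12 tests in all with Benjamini-Hochberg adjustment over them. The smallest p this design allows is 0.0238, and no test passed 0.05 after adjustment. The tests treat the 6 libraries alike whichever siRNA they received, so p does not measure the spread between siRNAs of a target. In SW480 the share of all mitochondrial genes averaged 2.86% with siTIP60-2 and 4.17% with siTIP60-11. The share of counts in all mitochondrial genes differed by 0.71 on the log2 scale with the TIP60 siRNAs in HCT116 (exact permutation p = 0.0238, 0.0714 adjusted, higher in 6 of 6 libraries than in any control) and by 0.33 in SW480 (p = 0.0476, 0.0952 adjusted). With the BRD8 siRNAs it differed by 0.41 in HCT116 (exact permutation p = 0.0476, 0.0952 adjusted) and by −0.12 in SW480 (p = 0.119, 0.179 adjusted). From TPM instead of counts, the exact permutation p adjusted over the 12 was 0.0476 for both targets in HCT116 and for TIP60 in SW480, with differences of 0.44, 0.76 and 0.48. This adjusted p depends on how many of the 12 tests reach the smallest p, 0.0238. By counts TIP60 in HCT116 had already reached that p. On log2(TPM + 1) with limma, the median over all genes was itself 0.18 with the TIP60 siRNAs in SW480.

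In HCT116 both BRD8 siRNAs raised 3 of 13 mitochondrial mRNAs, and none fell. Of all 15919 genes tested in this line, 12.2% were called higher and 12.2% lower with both siRNAs (a call needs the same direction with both siRNAs and an adjusted larger p under 0.05 in edgeR's quasi-likelihood test). Over both siRNAs, a printed difference and SE are those of their mean, while the adjusted p comes from the larger of their 2 p-values. MT-ATP8, the small ATP synthase subunit, had 288, 269 and 269 normalised CPM in the control libraries, 436, 353 and 412 with siBRD8-6 and 387, 395 and 373 with siBRD8-36. All 6 depleted libraries lay above the 3 controls, and the mean difference was 0.51 ± 0.0864 (SE, adjusted p = 0.00127) on the log2 scale. MT-ND4L, a small membrane subunit of complex I, had 197, 161 and 187 in control, 296, 221 and 267 with siBRD8-6 and 287, 218 and 243 with siBRD8-36, again without overlap, a difference of 0.49 ± 0.111 (SE, adjusted p = 0.0167). MT-ND5, a proton-pumping subunit of complex I, had 740.0, 705 and 846 in control, 1429.8, 947 and 1396 with siBRD8-6 and 1256, 832 and 1255 with siBRD8-36, so that library 2 of siBRD8-36 fell within the control range. Its difference was 0.63 ± 0.161 (SE, adjusted p = 0.0472), a call lost without any 1 control library, siBRD8-6 library 3, siBRD8-36 library 1 or 3, or any 1 TIP60 siRNA library (adjusted p 0.0523 to 0.169). The call was also lost with no filter on low counts (edgeR, adjusted p = 0.152) and by limma on log2(TPM + 1) (adjusted p = 0.140).

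The other 10 mRNAs did not pass by edgeR in HCT116 with BRD8 siRNAs, with mean differences from 0.027 for MT-CO1 to 0.59 for MT-ND2, and the median over the 13 was 0.46 against −0.022 over all genes. Singly, siBRD8-6 raised 7 of 13 (24.8% of all genes were higher) and siBRD8-36 raised 6 of 13 (28.8% of all genes). The 2 siRNAs differed from each other for 2 of 13 mRNAs, where 56.7% of all genes differed in either direction: MT-CO1 was 0.53 ± 0.126 (SE, adjusted p = 0.00232) with siBRD8-36 relative to siBRD8-6 and MT-ND3, a core complex I subunit, −0.54 ± 0.196 (SE, adjusted p = 0.0337). Without the 5 HCT116 libraries numbered 2, 11 of 13 mRNAs rose with both BRD8 siRNAs and 6 of 13 differed between the 2 siRNAs. The share of all genes called in that fit was not computed, and the shares above belong to the fit of all HCT116 libraries. The call count also depended on single libraries: it was 1 without control library 2 or siBRD8-36 library 1, 5 without siBRD8-6 library 2 and 8 without siBRD8-36 library 2, and MT-ATP8 was called in each of these. MT-ND4L was not called without control library 2 (adjusted p = 0.113) or siBRD8-36 library 1 (0.0706), nor by limma on log2(TPM + 1) (0.0823).

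Both TIP60 siRNAs raised 11 of 13 mitochondrial mRNAs in HCT116 and lowered none, where 13.7% of all genes were called higher and 14.1% lower. MT-CYB, cytochrome b of complex III, had 727, 809.9 and 803 normalised CPM in control, 1537, 1341 and 1499 with siTIP60-2 and 1506, 1682 and 1725 with siTIP60-11, without overlap. The mean difference was 0.99 ± 0.19 (SE, adjusted p = 0.00698) on the log2 scale. MT-ND4, a proton-pumping subunit of complex I, had 2265, 2162 and 2208 in control, 4307, 3589.8 and 4128 with siTIP60-2 and 3708, 4039 and 4063 with siTIP60-11, a rise of 0.84 ± 0.119 (SE, adjusted p = 0.000236). The siTIP60-11 libraries of this mRNA lay within the range of the siTIP60-2 libraries.

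The other complex I mRNAs that rose with both TIP60 siRNAs in HCT116 were MT-ND5 by 0.97 ± 0.163, MT-ND2 by 0.94 ± 0.154, MT-ND3 by 0.91 ± 0.176, MT-ND4L by 0.83 ± 0.113 and MT-ND1 by 0.75 ± 0.141 (SE). Both ATP synthase mRNAs rose, MT-ATP6 by 0.88 ± 0.159 and MT-ATP8 by 0.80 ± 0.0874, and of complex IV MT-CO3 rose by 0.76 ± 0.129 and MT-CO2 by 0.59 ± 0.141. The adjusted p of MT-CO2 was 0.0481, and it was no longer called without control library 1, 2 or 3, without any 1 of the 6 TIP60 siRNA libraries or without siBRD8-36 library 1, with adjusted p of 0.0543 to 0.156. MT-ND1 lost its call without control library 1 or 2 or siTIP60-2 library 1 (adjusted p 0.0514 to 0.0579) and MT-ATP6 without control library 2 (0.0580), while MT-CO1 gained one without control library 2 (0.0160).

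MT-CO1 and MT-ND6 were the exceptions. MT-CO1 had 3073, 3988 and 2823 normalised CPM in HCT116 control, 4225, 3827 and 3977 with siTIP60-2 and 4923, 5260.1 and 5441 with siTIP60-11, and control library 2 stood above 2 of the 3 siTIP60-2 libraries. Its mean difference was 0.47 ± 0.111 (SE, adjusted p = 0.122). It was called with no filter on low counts (0.48, edgeR, adjusted p = 0.000486), where MT-CO2 and MT-ND1 lost their calls (adjusted p of 0.126 and 0.0508). MT-CO1 was also called without the 5 HCT116 libraries numbered 2 (0.64, adjusted p = 5.06e-07), where 12 of 13 mRNAs were called. The share of all genes called in these 2 fits was not computed. MT-ND6 had 13.3, 11.6 and 9.86 in control, 11.1, 8.17 and 7.83 with siTIP60-2 and 16, 19.3 and 20.5 with siTIP60-11. The 2 siRNAs stood on opposite sides of control for it, and the second passed, −0.36 ± 0.205 (SE, adjusted p = 0.167) and 0.68 ± 0.194 (SE, adjusted p = 0.00812). Singly, siTIP60-2 raised 11 of 13 mRNAs (24.3% of all genes were higher) and siTIP60-11 raised 13 of 13 (25.9% of all genes). Compared directly, siTIP60-11 was above siTIP60-2 for 4 of 13, where 22.5% of all genes were higher: MT-ND6 by 1.04, MT-CO1 by 0.38, MT-CO3 by 0.37 and MT-ATP8 by 0.33. That count was 1 without siTIP60-2 library 2 or siTIP60-11 library 2, 2 without library 3 of either siRNA, and 8 (6 higher, 2 lower) without all libraries numbered 2.

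The median difference of the 13 mRNAs in HCT116 was 0.83 with the TIP60 siRNAs (−0.027 over all genes) and 0.46 with the BRD8 siRNAs, which share their control libraries. Set against each other directly, the BRD8 siRNA libraries were below the TIP60 siRNA libraries for 11 of 13 mRNAs, where 31.7% of all genes were lower. The differences ran from −0.48 for MT-ND4 to −0.29 for MT-ATP8. MT-CO2 at −0.15 ± 0.112 (SE, adjusted p = 0.272) and MT-ND6 at −0.025 ± 0.14 (SE, adjusted p = 0.891) did not pass.

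In SW480 the BRD8 siRNAs lowered 3 of 13 mitochondrial mRNAs and raised none, where 14% of the 15277 genes tested were called lower and 12.9% higher. MT-ND6 had 10.3, 13.1 and 10.2 normalised CPM in control, 5.77, 7.46 and 8.43 with siBRD8-6 and 6.98, 6.11 and 5.88 with siBRD8-36. All depleted libraries lay below the controls, and the difference was −0.72 ± 0.172 (SE, adjusted p = 0.0227) on the log2 scale. MT-CO1 had 5806, 6008 and 5874 in control, 5205, 5484 and 4734 with siBRD8-6 and 5045, 4667 and 4407 with siBRD8-36, without overlap and with a difference of −0.26 ± 0.0469 (SE, adjusted p = 0.00674). MT-ND1 had 1330.3, 1425 and 1351 in control, 1158, 1292 and 1039.5 with siBRD8-6 and 1207, 1123 and 1045 with siBRD8-36, also without overlap, and differed by −0.26 ± 0.0555 (SE, adjusted p = 0.00653). These last 2 differences are small, and both calls were lost without siBRD8-6 library 3 (adjusted p of 0.0659 for MT-CO1 and 0.0712 for MT-ND1), and without both that library and siBRD8-36 library 1 (0.0555 and 0.0562), which left MT-ND6.

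MT-ND6 in turn lost its call in SW480 without control library 2 or siBRD8-6 library 1 or 2 (adjusted p of 0.137, 0.0977 and 0.0574), and MT-ND4 gained one without siBRD8-6 library 2 (−0.27, adjusted p = 0.0404). On log2(TPM + 1) with limma no mRNA was called lower and 2, MT-ND2 and MT-CO3, were called higher, at 0.25 and 0.24. The median over all genes was then 0.23 and not −0.0036, so the direction of MT-CO1 and MT-ND1 in SW480 depended on the scale. On that scale MT-CO1 stood at 0.023, MT-ND1 at 0.025 and MT-ND6 at −0.42. By counts the median over the 13 was −0.12. Singly, siBRD8-6 changed 4 of 13 mRNAs, 3 lower and MT-ND3 higher (52.1% of all genes changed in either direction), and siBRD8-36 lowered 8 of 13 (28.5% of all genes). The second siRNA was below the first for 8 of 13 in the direct comparison, where 27% of all genes were lower, with MT-ATP8 at −0.39 ± 0.0881 (SE, adjusted p = 0.0011) and MT-ND4L at −0.36 ± 0.0598 (SE, adjusted p = 1.04e-05).

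With the TIP60 siRNAs in SW480, MT-ND5 alone rose with both siRNAs, 1 of 13, and none fell, against 11.5% of all genes called higher and 12.1% lower. It had 845, 878 and 891 normalised CPM in control, 1179, 1138 and 1172 with siTIP60-2 and 1395, 1599 and 1382 with siTIP60-11. The groups did not overlap, and the difference was 0.58 ± 0.0535 (SE, adjusted p = 6.06e-06) on the log2 scale. The median over the 13 mRNAs was 0.34, and the 2 siRNAs otherwise gave different pictures. With siTIP60-11 13 of 13 mRNAs rose, where 23.4% of all genes did, from 0.40 for MT-CO1 to 0.83 for MT-ATP6. With siTIP60-2 3 of 13 changed, where 49.5% of all genes changed in either direction: MT-ND5 rose by 0.42, MT-ATP6 rose by 0.17 and MT-CO1 fell, at −0.18.

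MT-ATP6 shows the contrast between the siRNAs in SW480. Its normalised CPM were 2214, 2268 and 2212 in control, 2517, 2484 and 2548 with siTIP60-2 and 3859, 4149 and 3932 with siTIP60-11. For 13 of 13 mRNAs siTIP60-11 was above siTIP60-2, where 21.9% of all genes were higher, by 0.33 for MT-ND5 up to 1.02 for MT-ND6. KAT5 itself was higher in the siTIP60-11 libraries than in the siTIP60-2 libraries, by 0.77 ± 0.168 (SE, adjusted p = 0.000464) in SW480 and 0.43 ± 0.106 (SE, adjusted p = 0.00788) in HCT116. On log2(TPM + 1), 10 of 13 mRNAs rose with both TIP60 siRNAs in SW480, with a median over all genes of 0.18. The share of all genes called on that scale was not computed. Without siBRD8-6 library 2 or 3, which enter the fit through its spread, MT-ATP6 was called too, for a count of 2.

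Against the TIP60 siRNAs, the BRD8 siRNA libraries of SW480 were lower for 13 of 13 mRNAs, where 30.2% of all genes were lower. The differences were −1.03 ± 0.133 (SE, adjusted p = 7.59e-07) for MT-ND6, −0.59 ± 0.0454 (SE, adjusted p = 2.06e-11) for MT-ND4 and −0.57 ± 0.0426 (SE, adjusted p = 4.9e-12) for MT-ND5, down to −0.22 ± 0.0442 (SE, adjusted p = 0.000128) for MT-ND3. This contrast takes the mean of 2 TIP60 siRNAs that differ from each other for all 13.

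**Figure D3:**
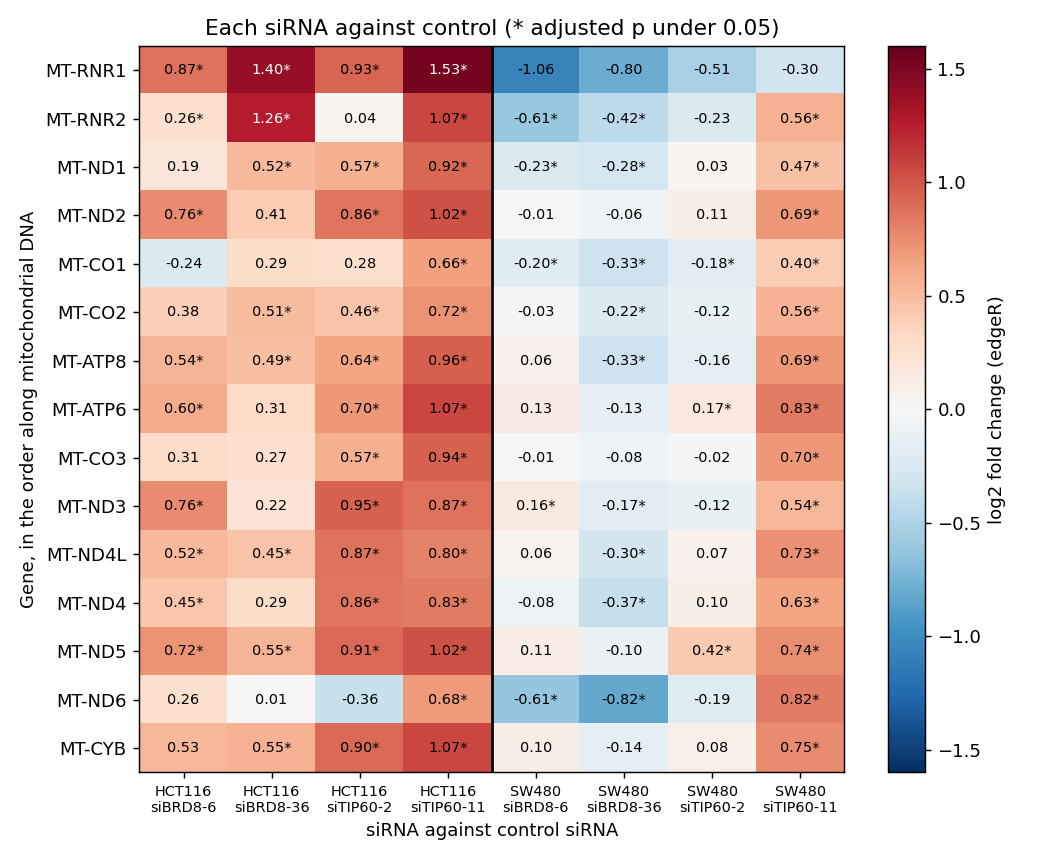
Log2 fold change against control siRNA (colour and number, edgeR) of each rRNA and mRNA, in the order along mitochondrial DNA, for each of the 4 siRNAs in HCT116 (left) and SW480 (right), with an asterisk where the adjusted p is under 0.05. With siTIP60-11 all 13 mRNAs carry one in both lines, and siBRD8-36 gives values above 0 for the 13 mRNAs in HCT116 and below 0 in SW480 on this scale of counts.

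The responses of the lines were compared by the interaction term in the fit of 30 libraries. The BRD8 response was lower in SW480 than in HCT116 for 8 of 13 mRNAs, where 12.5% of all genes were lower, and for both rRNAs. MT-ND6 differed by −0.78 ± 0.274 (SE, adjusted p = 0.028) and MT-ATP8 by −0.58 ± 0.126 (SE, adjusted p = 0.000799), and MT-ND5, MT-ND2, MT-ND1, MT-ND4L, MT-ND4 and MT-CO2 by −0.56 to −0.50. The TIP60 response was lower in SW480 for 8 of 13 mRNAs, where 13.1% of all genes were lower, and for both rRNAs, with MT-ND3 at −0.66 ± 0.183 (SE, adjusted p = 0.00842) and MT-CYB at −0.53 ± 0.195 (SE, adjusted p = 0.0437). In these 2 terms the median over all genes lay at 0.096 and 0.065. The BRD8 count was 13 without all HCT116 libraries numbered 2, and also without siBRD8-36 library 2 of HCT116 or siTIP60-11 library 1 of SW480, and the TIP60 count was 4 without control library 1 of HCT116 or control library 2 of SW480 and 5 without control library 2 of HCT116. On log2(TPM + 1) each count was 1, with medians over all genes of 0.20 and 0.18.

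Both rRNAs rose with BRD8 siRNAs in HCT116, and MT-RNR1 rose with TIP60 siRNAs too. MT-RNR1 had 249, 339 and 295 normalised CPM in control, 617, 454 and 547 with siBRD8-6, 855, 635 and 836 with siBRD8-36, 591, 520.4 and 569.9 with siTIP60-2 and 773, 918 and 862 with siTIP60-11. Every depleted library lay above every control, and MT-RNR1 rose by 1.14 ± 0.13 (SE, adjusted p = 0.00047) with the BRD8 siRNAs and by 1.23 ± 0.13 (SE, adjusted p = 0.000249) with the TIP60 siRNAs. MT-RNR2 had 1558, 1722 and 1544 in control, 2079, 1735 and 1966 with siBRD8-6, 3975, 3551 and 4013 with siBRD8-36, 1786, 1545 and 1646 with siTIP60-2 and 3146, 3510.0 and 3444 with siTIP60-11. It stood high with siBRD8-36 and siTIP60-11, just above the controls with siBRD8-6 and among them with siTIP60-2. Both BRD8 siRNAs raised it, by 0.76 ± 0.0682 (SE, adjusted p = 0.0153) on average, a call lost without control library 1 or 3 or siBRD8-6 library 1 or 3 (adjusted p 0.0501 to 0.10), whereas the TIP60 siRNAs gave 0.56 ± 0.0675 (SE, adjusted p = 0.96). That p follows siTIP60-2, at 0.045 ± 0.0762 (SE), while siTIP60-11 gave 1.07 ± 0.077 (SE). Without the 5 HCT116 libraries numbered 2 the TIP60 value was 0.62 and was called (edgeR, adjusted p = 0.0394).

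The siRNAs of one target differed directly for MT-RNR2, by 1.0 ± 0.0768 (SE, adjusted p = 1.96e-09) between siBRD8-36 and siBRD8-6 and by 1.02 ± 0.0769 (SE, adjusted p = 3.41e-09) between siTIP60-11 and siTIP60-2 in HCT116. The rRNA counts per mRNA count were 0.247, 0.296 and 0.24 with siBRD8-36 and 0.103, 0.104 and 0.101 with siTIP60-2, above and below the control values of 0.134, 0.14 and 0.134. Over both siRNAs of a target the ratio differed by 0.49 on the log2 scale with BRD8 (exact permutation p = 0.19, 0.229 adjusted over the 12 tests) and by −0.063 with TIP60 (p = 0.69, 0.753 adjusted). The small structured RNAs summed to 238, 124 and 175 CPM with siBRD8-36 and 112, 169 and 194 with siTIP60-11 in these libraries, against 214, 188 and 128 in control. In each of the 5 HCT116 groups the library lowest in these RNAs was also the lowest in MT-RNR2 by CPM. For MT-RNR1 this did not hold in control, where library 3 was lowest in the small RNAs and library 1, at 257 CPM, in MT-RNR1. Over the 15 HCT116 libraries the Pearson correlation of log2 values with the small RNAs was 0.066 for MT-RNR1 and 0.26 for MT-RNR2. After subtraction of group means it was 0.49 and 0.71. The part of the small RNAs in the rRNA values of HCT116 was not tested. Set directly against the TIP60 siRNAs, MT-RNR2 was higher with the BRD8 siRNAs by 0.20 ± 0.0538 (SE, adjusted p = 0.00288) in HCT116.

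In SW480 the rRNAs varied within groups, and MT-RNR1 varied most. It had 1624, 1816 and 1672 normalised CPM in control, 1174, 864 and 409 with siBRD8-6 and 547, 1066 and 1326 with siBRD8-36. The small structured RNAs in the same libraries summed to 3019.5, 3527 and 3156 CPM in control, 1850.5, 1056 and 280.0 with siBRD8-6 and 415, 1589 and 1791 with siBRD8-36, and in each group the libraries lowest in one were lowest in the other. The same held with siTIP60-2, at 1496, 1143 and 938 for MT-RNR1 and 2471, 1655 and 1363 for the small RNAs, and with siTIP60-11, at 1893, 1145 and 1113 for MT-RNR1 and 2615, 1161 and 1036 for the small RNAs. MT-RNR1 was not called in SW480, with −0.93 ± 0.345 (SE, adjusted p = 0.217) for the BRD8 siRNAs and −0.41 ± 0.349 (SE, adjusted p = 0.874) for the TIP60 siRNAs. The part of these small RNAs in the rRNA values was not tested.

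MT-RNR2 in SW480 had 5092, 5375 and 5076 normalised CPM in control, 3832, 3633 and 2740.4 with siBRD8-6 and 3699, 3930.3 and 4019 with siBRD8-36. It fell without overlap, with a difference of −0.51 ± 0.0776 (SE, adjusted p = 0.00273). Without siBRD8-6 library 3 and siBRD8-36 library 1 it was still called, while on log2(TPM + 1) with limma it was not (−0.23, adjusted p = 0.383). With siTIP60-11 it stood at 7918, 7694 and 7232, above the control, and with siTIP60-2 at 4613, 4451 and 4227, below it. The rRNA counts per mRNA count lay below the control in 6 of 6 BRD8 siRNA libraries and in 6 of 6 TIP60 siRNA libraries of SW480. The log2 differences were −0.48 and −0.26 (exact permutation p = 0.0238 each, the smallest possible, and 0.0714 adjusted over the 12 tests). All these depleted libraries also held less of the small structured RNAs, 280.0 to 2615 CPM against 3019.5 to 3527 in control. They held more assigned counts too, 8.21 to 11.7 M against 7.07 to 7.69 M in control. The part of the small RNAs or of depth in the ratio was not tested.

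**Figure D4:**
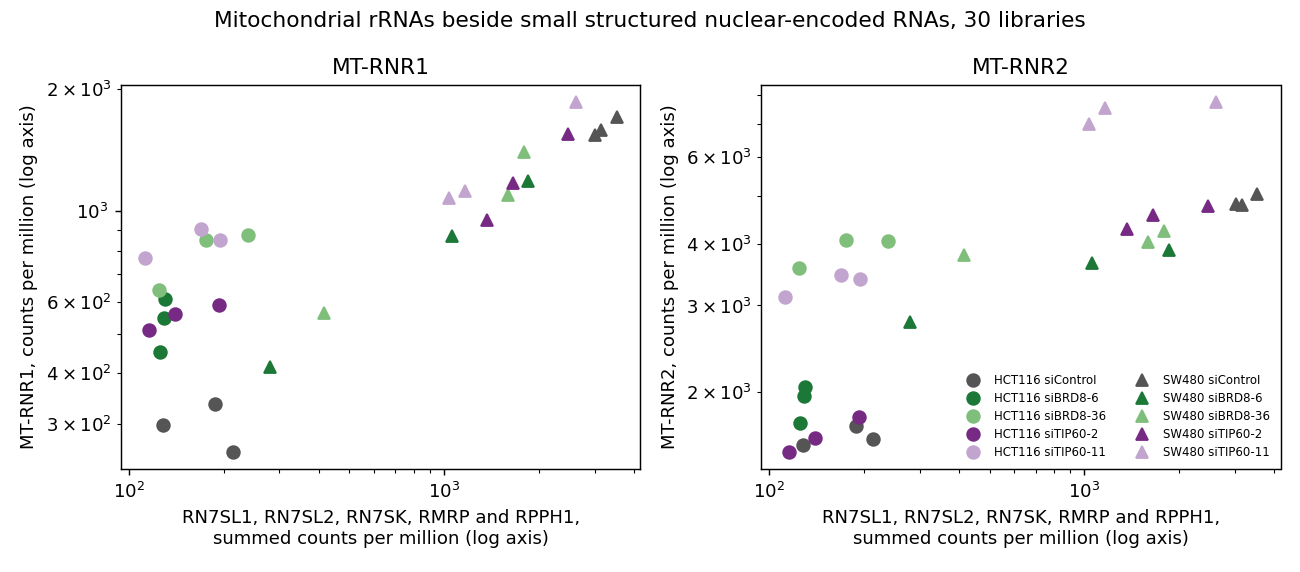
CPM of MT-RNR1 (left) and MT-RNR2 (right) against the summed CPM of RN7SL1, RN7SL2, RN7SK, RMRP and RPPH1, both on log axes, with 1 point per library (circles HCT116, triangles SW480, colours by siRNA). In SW480 MT-RNR1 runs from 415 to 1852 CPM along with a range of 280.0 to 3527 of the small RNAs, while in HCT116 the small RNAs stay between 112 and 238 in all groups.

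Among the mRNA counts themselves the composition differed between groups. In SW480 MT-CO1 made up 26.7, 26.5 and 26.8% of the 13-mRNA counts in control libraries and 23.3 to 24.4% with siBRD8-6, 24.7 to 25.3% with siBRD8-36, 22.9 to 23.8% with siTIP60-2 and 22.9 to 23.4% with siTIP60-11. All 12 depleted libraries lay below the controls. In HCT116 it made up 22.8, 27 and 20.6% in control, a wider spread, and 15, 17 and 15.6% with siBRD8-6 and 18.1 to 19.3% with siTIP60-2, both below control, while siBRD8-36 at 21.2 to 24.1% and siTIP60-11 at 20.1 to 20.9% overlapped it. These shares are descriptions, and no test was made of them. They are parts of 1 total, so a lower share of MT-CO1 means higher shares among the others. Lack of overlap was common. In SW480 3 of 13 shares lay below, 5 above and 5 overlapped control with siBRD8-6, and 4, 6 and 3 with siBRD8-36. With siTIP60-2 these were 4, 5 and 4, and with siTIP60-11 3, 6 and 4. In HCT116 siBRD8-6 gave 2, 5 and 6 and siBRD8-36 2, 1 and 10. There siTIP60-2 gave 3, 4 and 6 and siTIP60-11 1, 3 and 9.

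In the same groups other mRNAs held larger shares than in control. MT-ND5 held 3.89, 3.87 and 4.06% of the mRNA counts in SW480 control libraries and 5.37, 5.09 and 5.24% with siTIP60-2, where it also rose by edgeR. MT-ATP6 held 10 to 10.2% in control and 11.7 to 11.9% with siTIP60-11, and MT-CYB 8.56 to 8.81% and 9.43 to 9.81%. In HCT116 MT-ND2 held 4.2 to 4.72% in control and 5.78 to 5.97% with siBRD8-6. MT-ND3 held 1.35 to 1.94% and 2.01 to 2.14%, and MT-ATP6 10.9 to 14% and 14.8 to 15%, all without overlap. With siBRD8-36 these 3 shares overlapped the control, at 4.3 to 4.75%, 1.35 to 1.49% and 11.2 to 12.7%.

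MT-ND6, the mRNA of the other strand, held 0.0984, 0.0786 and 0.0719% of the mRNA counts in HCT116 control libraries and 0.0482, 0.0412 and 0.0355% with siTIP60-2, wholly below them. With siTIP60-11 it held 0.0681, 0.0738 and 0.0764%, which overlapped the control, and with siBRD8-36 0.0606, 0.0636 and 0.0692%, below it. Over both TIP60 siRNAs its share differed by −0.59 on the log2 scale (exact permutation p = 0.0714, 0.122 adjusted). In SW480 it held 0.0474, 0.0577 and 0.0463% in control, 0.0271, 0.0317 and 0.0434% with siBRD8-6 and 0.035, 0.0323 and 0.0331% with siBRD8-36, lower in 6 of 6 libraries, a difference of −0.59 on the log2 scale (exact permutation p = 0.0238, the smallest possible, and 0.0714 adjusted). With the TIP60 siRNAs in SW480 the difference was −0.006 (exact permutation p = 1), and with the BRD8 siRNAs in HCT116 −0.22 (p = 0.19, 0.229 adjusted).

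**Figure D5:**
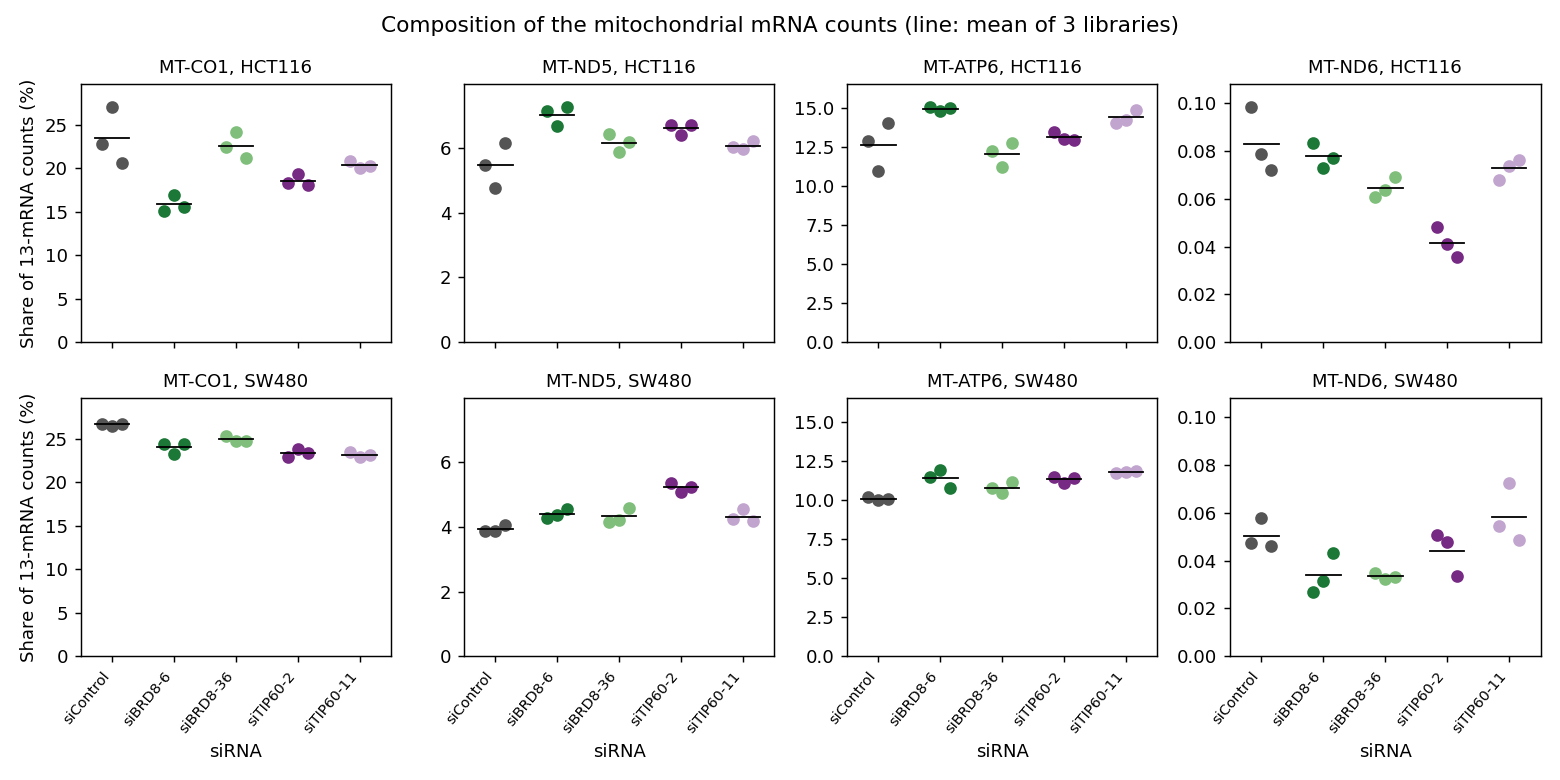
Share (percent) of the 13-mRNA counts held by MT-CO1, MT-ND5, MT-ATP6 and MT-ND6 in each library of HCT116 (top) and SW480 (bottom) by siRNA, with points for libraries 1 to 3 from left to right and bars at their mean. MT-CO1 lies below the control in all 4 siRNA groups of SW480 and is lowest in HCT116 with siBRD8-6, and MT-ND6 is lowest in HCT116 with siTIP60-2.

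Nuclear genes that serve mitochondrial DNA and its RNAs were read from lists chosen for their roles. The counts on each list are to be read against the background: with the BRD8 siRNAs 12.2% of all genes were called higher and 12.2% lower in HCT116 and 12.9% and 14% in SW480, and with the TIP60 siRNAs 13.7% and 14.1% in HCT116 and 11.5% and 12.1% in SW480. Of 9 genes of mitochondrial transcription, 3 rose and 1 fell with the BRD8 siRNAs in HCT116, and 1 rose and 3 fell in SW480. TFAM, which packages mitochondrial DNA and starts its transcription, fell in both lines, with differences of −0.58 ± 0.0472 and −0.73 ± 0.0563 (SE), whereas POLRMT rose by 0.42 ± 0.0524 in HCT116. With the TIP60 siRNAs 4 rose and 1 fell in HCT116, led by TFB2M at 0.76 ± 0.0617 and MTERF3 at 0.48 ± 0.0571, and 0 of 9 were called in SW480.

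Of 22 genes of mitochondrial RNA processing and stability, 5 rose and 1 fell with BRD8 siRNAs (12.2% of all genes each way) and 7 rose and 1 fell with TIP60 siRNAs (13.7% and 14.1% of all genes) in HCT116. ELAC2, which cuts behind tRNAs, rose by 0.57 ± 0.0409 and 0.82 ± 0.0412 there, and TBRG4, an RNA-binding protein of the FASTK family, by 0.42 ± 0.045 and 0.63 ± 0.0452. In SW480 the same list had 0 higher and 5 lower with BRD8 siRNAs and 1 higher and 7 lower with TIP60 siRNAs, where 14% and 12.1% of all genes were lower, among them SLIRP at −0.49 ± 0.099 with the first and GRSF1, a protein of mitochondrial RNA granules, at −0.64 ± 0.0472 with the second. Of 14 genes that copy and maintain mitochondrial DNA, 2 rose and 3 fell with either target in HCT116, 1 rose and 3 fell with BRD8 siRNAs in SW480, and 3 rose and 0 fell with TIP60 siRNAs there. TWNK, the helicase, rose by 0.82 ± 0.0433 and POLG, the polymerase, by 0.72 ± 0.043 with TIP60 siRNAs in HCT116, and POLG by 0.65 ± 0.0683 in SW480. Mitochondrial DNA itself was not measured.

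Nuclear subunits of the same respiratory complexes were also read. In SW480 with BRD8 siRNAs 16 of 37 complex I, 6 of 9 complex III, 8 of 11 complex IV and 11 of 18 ATP synthase genes fell and 1 complex I gene rose, where 14% of all genes were lower and 12.9% higher, with medians of −0.23, −0.30, −0.43 and −0.32 against −0.0036 over all genes. COX7A2 of complex IV fell by 0.78 and ATP5MG of the ATP synthase by 0.68 on the log2 scale. With TIP60 siRNAs 8, 4, 4 and 4 of these genes fell and none rose in SW480, where 12.1% of all genes were lower and 11.5% higher. In HCT116 with BRD8 siRNAs 4 complex I genes rose and 1 fell, 0 complex III genes were called, 1 complex IV gene fell and 2 ATP synthase genes rose, where 12.2% of all genes were called each way. With TIP60 siRNAs there, 1 complex I gene rose and 4 fell, 1 complex III gene fell, 0 complex IV genes were called, and 1 ATP synthase gene rose and 1 fell, against 13.7% of all genes higher and 14.1% lower.

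Mitoribosomal protein genes make the partners of MT-RNR1 and MT-RNR2. Of 78, 9 rose and 2 fell with BRD8 siRNAs in HCT116, no larger a share than the 12.2% of all genes each way, and 20 rose and 4 fell with TIP60 siRNAs, where 13.7% of all genes were higher and 14.1% lower, led by MRPL32 at 0.56 ± 0.0479 and MRPS7 at 0.58 ± 0.0599. In SW480 27 fell with BRD8 siRNAs and 25 with TIP60 siRNAs, where 14% and 12.1% of all genes were lower, and none rose, led by MRPL48 at −1.22 ± 0.0604 and −0.74 ± 0.0592. Of 12 mitochondrial protease and chaperone genes 2 rose and 2 fell with BRD8 siRNAs and 4 rose and 3 fell with TIP60 siRNAs in HCT116, and 1 rose and 5 fell and 0 rose and 5 fell in SW480. LONP1, a matrix protease that degrades TFAM, fell in HCT116, at −0.76 ± 0.0496 with BRD8 siRNAs and −0.55 ± 0.0497 with TIP60 siRNAs, and HSPA9, a matrix chaperone, fell with BRD8 siRNAs, at −0.41 ± 0.0371 in HCT116 and −0.43 ± 0.0428 in SW480. Of the biogenesis regulators, 9 tested in HCT116 and 10 in SW480, 2 rose and 2 fell with either target in HCT116, 1 rose and 1 fell with BRD8 siRNAs in SW480, and 2 rose and 1 fell with TIP60 siRNAs there. PPRC1, a coactivator, rose with TIP60 siRNAs by 0.83 ± 0.0635 and 0.60 ± 0.0653 in the 2 lines.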

How the data were processed

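Poly(A) selection or rRNA depletion is not given in the sources used here: libraries came from 100 ng total RNA with a directional kit and were read as single 60-base reads, per the labels' protocols. The authors trimmed with Trimmomatic 0.33, aligned with STAR 2.7.3a and deposited RSEM 1.3.3 expected counts and TPM per gene (hg38), per the submitters' processing notes. Expected counts were rounded and tested per line (15 libraries, 5 groups) with edgeR 4.0.16 (filterByExpr, TMM, robust quasi-likelihood). A gene was called when both siRNAs moved one way and the larger p, adjusted by Benjamini-Hochberg over all genes tested, was under 0.05. Its printed difference and SE are those of the mean of both siRNAs. Differences between siRNAs, targets and lines used direct contrasts, the last in all 30 libraries. Single values per library used exact permutation tests (scipy 1.17.1). Alternatives used DESeq2 1.42.0, limma 3.58.1 on log2(TPM + 1), other scalings and filters, nuclear copies added, a replicate block and the omission of each library. No 2 libraries of a group were identical. The fit was tested on simulated data with genes changed by the same amount in both TIP60 siRNA groups. Of genes changed 1.5 times, 59.7% were called in HCT116 and 52.2% in SW480. At 2 times 70.3% and 73.8% were called, and at 4 times 90.8% and 97%. Far fewer genes were changed in the simulation than were called in the data, and the siRNAs of a target could differ there. These percentages need therefore not hold for the data. A gene that was not called may still differ. All mRNAs and rRNAs are named, and up to 3 called members of each companion list with the greatest change. Members and lists were chosen with earlier results of these data known. Positions and sequences are from GENCODE 29, whose lengths equal those of the files for all 37 genes.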

Additional observations from a re-analysis of the deposited data

Results flagged for a closer look

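The response to depletion differed between the lines by the interaction term (edgeR, 30 libraries, adjusted p under 0.05) for the following genes, each value being the SW480 response minus the HCT116 response on the log2 scale. For the BRD8 siRNAs the rRNAs differed by −2.0 for MT-RNR1 and −1.2 for MT-RNR2. Among the complex I mRNAs the values were −0.78 for MT-ND6, −0.56 for MT-ND5, −0.55 for MT-ND2, −0.55 for MT-ND1, −0.54 for MT-ND4L and −0.53 for MT-ND4. MT-ATP8 of the ATP synthase differed by −0.58 and MT-CO2 of complex IV by −0.50.

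For the TIP60 siRNAs the rRNAs differed by −1.6 for MT-RNR1 and −0.35 for MT-RNR2. The mRNA values were −0.66 for MT-ND3, −0.53 for MT-CYB, −0.50 for MT-ND2, −0.49 for MT-ATP8, −0.45 for MT-ND1, −0.44 for MT-ND4, −0.39 for MT-ND4L and −0.38 for MT-CO3. In SW480 the MT-RNR1 values moved within groups with the small structured RNAs given in the report, and their part in the interaction was not tested. Line and medium cannot be told apart.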

How the results depend on the processing

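The count of 3 mRNAs called with both BRD8 siRNAs in HCT116 became 1 by limma on log2(TPM + 1), 10 when the mean of both siRNAs was tested and 11 without the libraries numbered 2, an omission chosen after seeing the data, and ran from 1 to 8 over single omissions. For siBRD8-36 against siBRD8-6 in HCT116 the count of 2 became 1 with no filter and 6 without the libraries numbered 2 (1 to 5 over single omissions), and for siTIP60-11 against siTIP60-2 the count of 4 became 2 by limma and 8 without the libraries numbered 2 (1 to 6). In SW480 the 3 lower BRD8 calls became 2 higher ones by limma, 5 by the mean and 1 without the 2 libraries poorest in small structured RNAs, also chosen after seeing the data (1 to 3). The TIP60 count of 1 in SW480 became 2 with no filter and without those 2 libraries, 10 by limma and 11 by the mean (1 to 2). The BRD8 interaction count of 8 became 13 by DESeq2, with a minimum of 1 CPM and without the libraries numbered 2, and 1 by limma (7 to 13), and the TIP60 one of 8 became 1 by limma (4 to 11). The cause of these changes was not tested. The shares of all genes called under these alternatives and omissions were not computed, so the shares given in the report hold for the main fits only. Over single omissions the TIP60 count in HCT116 was 9 to 11, BRD8 against TIP60 9 to 11 in HCT116 and 13 in SW480, siBRD8-36 against siBRD8-6 in SW480 6 to 10, siTIP60-11 against siTIP60-2 in SW480 13, and the control lines 6 to 10.

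Gene by gene, 1355 values under an alternative stayed on their side of the threshold, 47 lost a call and 34 gained one. For SW480 BRD8, 4 values called by edgeR or by limma had opposite signs in these fits, by limma MT-ND2 at 0.25, MT-CO3 at 0.24, MT-CO1 at 0.023 and MT-ND1 at 0.025. Values called in neither fit changed sign too, such as MT-CYB.

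From TPM the exact permutation tests gave 0.44 and 0.76 for the mitochondrial share with BRD8 and TIP60 in HCT116, 0.48 with TIP60 in SW480, −0.56 and −0.33 for the rRNA to mRNA ratio with BRD8 and TIP60 in SW480 and −0.61 for the MT-ND6 share with BRD8 in SW480, each with an adjusted permutation p of 0.0476. That value is set by how many tests reached the smallest possible p. With TIP60 in SW480 the median over all genes was itself 0.18 on log2(TPM + 1) with limma. Over single omissions the mitochondrial share differed by 0.36 to 0.48 and 0.67 to 0.77 (BRD8 and TIP60, HCT116) and by −0.15 to −0.091 and 0.27 to 0.39 (SW480). The rRNA to mRNA ratio ranged over 0.36 to 0.59 and −0.14 to 0.011 in HCT116 and −0.57 to −0.39 and −0.30 to −0.23 in SW480, and the MT-ND6 share over −0.32 to −0.090 and −0.68 to −0.46, and −0.66 to −0.49 and −0.11 to 0.11.

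Groups share replicate numbers, but only 7 of 30 same-numbered pairs in HCT116 and 1 of 30 in SW480 correlated above 0.1, and the labels give no shared culture or day, so the libraries were not treated as paired. As a hint from the data, 13 of 15 HCT116 libraries and 2 of 15 in SW480 fitted their own number best. Within replicate numbers, where 27 arrangements allow an exact permutation p of at least 0.0741, the mitochondrial share gave 0.148 and 0.0741 with BRD8 and TIP60 in HCT116 and 0.148 and 0.0741 in SW480, the rRNA to mRNA ratio 0.222 and 0.815, and 0.0741 and 0.0741, and the MT-ND6 share 0.148 and 0.148, and 0.0741 and 1. With the replicate number as a block, siBRD8-36 against siBRD8-6 in HCT116 gave 1 called mRNA in place of 2 (MT-CO2 with TIP60 siRNAs in HCT116 also lost its call), and no other count moved by over 1.5 times. Depth limits MT-ND6 and the tRNAs, which hold the fewest counts.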

Other observations

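Of 10 tested nuclear-retained and non-polyadenylated RNAs in SW480, 3 fell and 0 rose with the BRD8 siRNAs and 2 fell and 0 rose with the TIP60 siRNAs, where 14% and 12.1% of all genes were lower. The medians over this list were −1.54 and −0.97 on the log2 scale, against −0.0036 and 0.0074 over all genes. Together these RNAs held 0.434 to 0.487% of the counts in SW480 control libraries and 0.0941 to 0.368% in the depleted ones. MALAT1, a long non-coding RNA of nuclear speckles, fell in SW480, at −1.0 ± 0.142 on the log2 scale with the BRD8 siRNAs and −0.80 ± 0.142 with the TIP60 siRNAs (SE, edgeR, both called). SNHG1, a host gene of small nucleolar RNAs, fell too, at −1.47 ± 0.0537 and −0.72 ± 0.053, and NEAT1, which builds paraspeckles, fell with the BRD8 siRNAs, at −0.72 ± 0.13. In HCT116 0 of 8 tested genes of this list were called with the BRD8 siRNAs and 1, SNHG1, fell with the TIP60 siRNAs, at −0.28 ± 0.061, where 12.2% and 14.1% of all genes were lower. The medians over the list were −0.32 and −0.11 in that line.

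MT-RNR2 counts per MT-RNR1 count were 6.26, 5.08 and 5.24 in HCT116 control libraries, 3.37, 3.83 and 3.59 with siBRD8-6, 4.65, 5.59 and 4.8 with siBRD8-36, 3.02, 2.97 and 2.89 with siTIP60-2 and 4.07, 3.82 and 4.0 with siTIP60-11. In SW480 the ratio varied within groups, as did the small structured RNAs given in the report, at 3.14, 2.96 and 3.04 in control libraries, 3.26, 4.2 and 6.7 with siBRD8-6, 6.76, 3.69 and 3.03 with siBRD8-36, 3.08, 3.89 and 4.5 with siTIP60-2 and 4.18, 6.72 and 6.5 with siTIP60-11. The part of those RNAs was not tested.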
